A study of Mus musculus with 12 samples.

Results

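The 10 genes described here encode transcription factors of genome activation and early pluripotency: Pou5f1, Sox2, Sall4, Nr5a2, Tfap2c, Klf4, Klf5, Klf17, Dppa2 and Dppa4. They were chosen by name, not by a measured value, and all 10 were listed in both deposited tables, among 17866 genes in the knockdown table and 19390 genes in the immunoprecipitation table. The study worked on mouse 2-cell embryos, and the source strain named for the knockdown is CF1. In the knockdown experiment, 2 control libraries came from embryos given RfxCas13d, an enzyme that cuts RNA, without a guide, and 2 knockdown libraries came from embryos given the enzyme with guide RNA against Eif1ad3 and its relatives. That is the design text's account, and the genotypes are labelled WT and Eif1ad3_KD. The samples' own protocol instead names antisense morpholino oligos and Cas13d protein injected into oocytes, and the labels do not settle which was used. For the immunoprecipitation (RIP-seq, which sequences RNA pulled down with a protein), mRNA encoding Eif1ad3 with a tag of 6 histidines, made in vitro, was injected into zygotes at 200 ng/uL. RNA was then recovered from 200 cells a replicate on anti-His beads (2 His libraries) or on IgG beads (2 IgG libraries). Both pulldowns are labelled Eif1ad3_OE and therefore share the injected mRNA. Each group had 2 replicates, A and B, and a pair of values below is always replicate A followed by replicate B. Nothing in the labels says that they are separate collections of embryos, so p-values measure the spread between these libraries, which may be technical.

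In the mouse embryo, transcription from the new genome begins in earnest at the 2-cell stage, while much of the RNA loaded into the egg is still present. Pou5f1 (also called Oct4), Sox2 and Sall4 are core factors of the later pluripotency network, and Pou5f1 and Sall4 RNA is also stored in the egg. Nr5a2 is an orphan nuclear receptor, Tfap2c is the AP-2 gamma factor, and Klf4, Klf5 and Klf17 are zinc-finger factors that bind CACC-box and GC-rich DNA. Dppa2 and Dppa4 are related SAP-domain proteins that form a complex and are known in embryonic stem cells as activators of Dux and the 2-cell gene programme.

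Values are CPM, a gene's read count scaled to a common library size. CPM is not divided by transcript length, so levels were compared between groups and not between genes. Library totals, recovered from the size of 1 read in each column, ranged from 18173916 to 27902514 reads for the knockdown experiment and from 4678563 to 8364126 reads for the pulldowns. A floor of 3 reads was 0.108 to 0.165 CPM in the first and 0.359 to 0.641 CPM in the second, and covers counting error only. The IgG libraries stood apart: Pearson's correlation across genes between replicates was 0.564 within IgG, compared with 0.911 within His, 0.932 for knockdown and 0.971 for control. Eif1ad3 itself, the target, measured 839 and 663 CPM without guide and 277 and 377 CPM with it, 43.5% of the control mean, and 8 of the 9 Eif1ad genes had both knockdown libraries below both controls, as did 18.4% of all genes tested. The 2-cell identity of the samples was checked with 9 of 10 listed marker genes, such as Zscan4d and Zfp352, all 9 of which were above the floor in each of the 4 libraries of the knockdown table. Both knockdown libraries lay below both controls for 6 of the 9 and above for 1, beside 18.4% and 18.1% of all genes tested. In the same libraries the summed level of cumulus and granulosa cell markers (4 of 10 listed have a value) was 1.97 to 3.64 CPM, of sperm markers (2 of 5) 1.65 to 3.05 CPM, and of fibroblast markers (1 of 4) 0 to 0.560 CPM. Of 5 listed blood markers 1 has a value, Hba-a1, at 6.77 to 24.6 CPM. Markers of the later preimplantation embryo (7 of 8 listed) were not low, at a summed level of 327 to 454 CPM. Most of that was Dppa5a, at 301 to 434 CPM.

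In knockdown embryos the clearest separation among the 10 factors was in Dppa2, Dppa4 and Nr5a2, whose 2 knockdown libraries both lay below both controls, and in Sox2, whose 2 knockdown libraries both lay above. The other 6 factors overlapped between the groups. No factor passed the test across all genes: limma on log2(CPM + 1) called 0 of 10 factors at an adjusted p under 0.05, and 0 of 13332 genes tested (0%), with 4 factors and 726 genes at an unadjusted p under 0.05. edgeR on the recovered reads also called 0 genes (758 unadjusted), and DESeq2 called 15 (1029 unadjusted), of which 1 was a listed factor, Sox2. Groups did not overlap for 4 of the 10 factors, near the 36.5% of all genes tested. The median log2 difference over the 10 factors was -0.30, beside 0.02 over all genes tested. It moved to -0.060 without control replicate B and to -0.65 without knockdown replicate A. These libraries are of whole embryos, so differences between single cells or embryos cannot be seen in them.

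Dppa2 was at 697 and 777 CPM in control embryos against 396 and 449 CPM after knockdown. Dppa4, its partner, was at 851 and 971 CPM in the controls against 524 and 578 CPM after knockdown. In both genes the 2 knockdown libraries lay close together. Both were below both controls, as they were for 18.4% of all genes tested. The knockdown mean was 57.3% of the control mean for Dppa2 (422 ± 37.9 against 737 ± 56.3 CPM, SD, n = 2 each) and 60.5% for Dppa4 (551 ± 38.6 against 911 ± 85.4 CPM). The log2 difference was -0.80 for Dppa2 (SE 0.30, 95% interval -1.50 to -0.11) and -0.72 for Dppa4 (SE 0.30, 95% interval -1.41 to -0.04), with an adjusted p of 0.859 in limma for each. The 2 genes are neighbours, with 0 protein-coding genes starting between them in the RefSeq table. Their direction was the same in 8 of 8 alternatives, of which no filter and the replicate block leave the difference unchanged by construction. As the groups did not overlap in either gene, leaving out 1 library could not turn the direction. Both passed in limma without knockdown replicate A (adjusted p 0.0153 for Dppa2 and 0.0202 for Dppa4) and without knockdown replicate B (0.0138 and 0.0216), in fits that assume the lone knockdown library varies like the controls, and neither passed without control replicate A or B (1.00 each). Those fits called 1894 and 414 genes in all, in which Dppa2 and Dppa4 are included.

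Nr5a2 was at 187 and 111 CPM in control embryos against 80.3 and 67.5 CPM after knockdown. Both knockdown libraries lay below both controls, and the 2 controls differed from each other by 1.69 times. The knockdown mean was 49.6% of the control mean (73.9 ± 9.05 against 149 ± 53.9 CPM, SD, n = 2 each). The log2 difference was -0.96 (SE 0.39, 95% interval -1.85 to -0.07, adjusted p 0.859 in limma), the most negative among the 10 factors, with 4.41% of all genes tested lower. It was -0.59 without control replicate A and -1.33 without control replicate B. It passed without knockdown replicate A (-1.08, adjusted p 0.0272 in limma), a fit that called 1894 genes, and did not pass without knockdown replicate B (-0.84, adjusted p 0.154) or without either control. The 2-cell markers lay the same way as Dppa2, Dppa4 and Nr5a2, with a summed level of 4894 and 4535 CPM in the controls and 3588 and 3812 CPM after knockdown, and their part in these values was not tested.

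**Figure D1:**
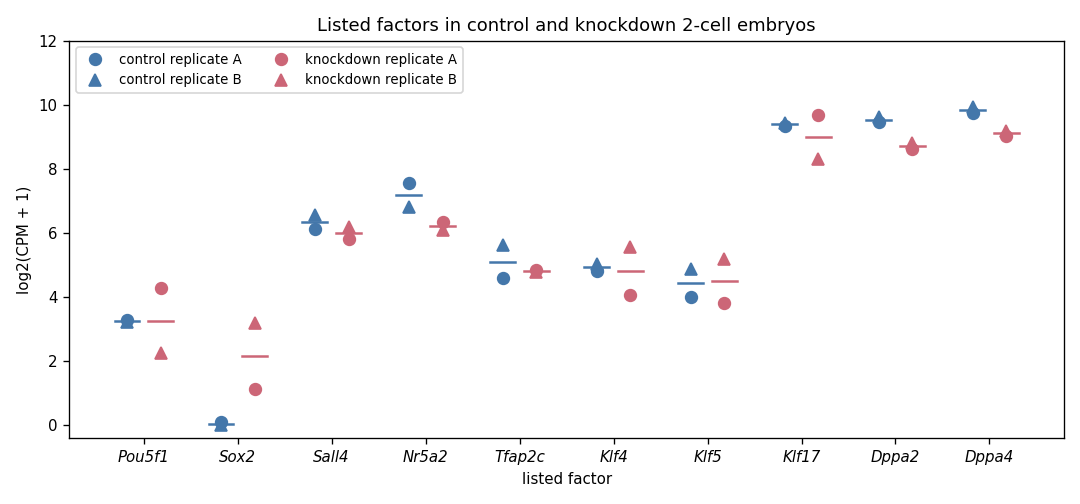
Level of each listed factor in the knockdown table, as log2(CPM + 1), with circles for replicate A, triangles for replicate B and short lines for the mean of each group of 2 libraries. Dppa2, Dppa4 and Nr5a2 lie lower in both knockdown libraries than in both controls, Sox2 lies higher, and Pou5f1, Klf17, Klf4 and Klf5 spread apart in the knockdown pair.

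Sox2 was near absent from control embryos, with 2 reads in replicate A (0.0800 CPM) and 0 reads in replicate B. After knockdown it had 34 and 149 reads, or 1.22 and 8.20 CPM. Both knockdown libraries were above both controls, as were 18.1% of all genes tested, but they differed from each other by 6.73 times. Over the pooled reads (183 against 2) the ratio was 99.1, with an exact 95% interval of 27.0 to 824 that covers counting error only. Sox2 entered the test only through its knockdown level, so a higher level there was built into its being tested. The log2 difference was 2.12 (SE 0.73, 95% interval 0.44 to 3.80) with an adjusted p of 0.859 in limma and of 0.0180 in DESeq2. The size depended on the processing: it was 0.85 with a pseudocount of 5, 4.62 with a pseudocount of 0.1, 6.81 by edgeR and 7.01 by DESeq2, and Sox2 was not tested when either knockdown library was left out. Sox2ot, a non-coding gene that spans Sox2 in the RefSeq table, had 20 and 6 reads in the knockdown libraries and 27 and 7 in the controls. Within the knockdown pair its order was the opposite of that of Sox2. How reads were assigned where the 2 genes overlap is not given in the sources used here, so the level of Sox2 is uncertain in that respect.

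Pou5f1 and Klf17 were even between the controls and uneven between the knockdown libraries. Pou5f1 was at 8.68 and 8.27 CPM in control embryos, against 18.3 and 3.80 CPM after knockdown, which placed the knockdown libraries on opposite sides of the controls. Klf17 was at 652 and 694 CPM in the controls against 828 and 317 CPM after knockdown. The log2 difference was 0.02 for Pou5f1 (SE 0.71, 95% interval -1.61 to 1.66, adjusted p 0.998 in limma) and -0.39 for Klf17 (SE 0.45, 95% interval -1.43 to 0.65, adjusted p 0.922). The sign of Pou5f1 turned with a pseudocount of 0.1 (-0.016), with quantile normalization (-0.034) and, in the fits with a library left out, without knockdown replicate A (-0.98) and without control replicate B (-0.0065). Klf17 was at -1.08 without knockdown replicate A (adjusted p 0.00150 in limma), in the fit that takes the spread from the controls alone and called 1894 genes. It was at 0.30 without knockdown replicate B (adjusted p 0.410) and did not pass without control replicate A or B (1.00 each). Of the listed oocyte-derived markers, 12 of 12 above the floor in each library, 9 were also highest in knockdown replicate A, and the list had a summed level of 14954 CPM in knockdown replicate A, 6853 CPM in knockdown replicate B and 6947 to 7087 CPM in the controls. Gdf9, a growth factor made by the oocyte, was at 1005 and 91.2 CPM after knockdown and at 345 and 283 CPM in the controls. The egg-coat genes Zp1, Zp2 and Zp3 were the other 3 of the list and were highest in control replicate A; Zp3 was at 119 and 116 CPM in the controls and at 75.0 and 60.6 CPM after knockdown. The part of these oocyte RNAs in the values of Pou5f1, Klf17 and the other factors was not tested. Pou5f1 also has a related sequence in the files, Pou5f1-rs4, at 0 to 0.160 CPM in these libraries; how reads matching more than 1 place were counted is not given in the sources used here, so the level of Pou5f1 is uncertain in that respect.

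Klf4 and Klf5 were also uneven between the knockdown libraries, in the other order. Klf4 was at 27.4 and 32.0 CPM in control embryos against 15.8 and 46.7 CPM after knockdown. Klf5 was at 15.2 and 28.3 CPM in the controls against 13.1 and 35.5 CPM after knockdown. In both genes knockdown replicate A was below both controls and knockdown replicate B above both. The log2 differences were -0.11 (SE 0.56) and 0.06 (SE 0.59), with adjusted p of 0.993 and 0.998 in limma, and their signs changed with the processing: Klf4 was at 0.16 with edgeR and 0.19 with DESeq2, and Klf5 at -0.022 with quantile normalization. Leaving out a library moved Klf4 between -0.87 and 0.64 and Klf5 between -0.63 and 0.75.

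Sall4 and Tfap2c overlapped between the groups. Sall4 was at 68.9 and 92.7 CPM in control embryos against 55.8 and 72.6 CPM after knockdown (log2 difference -0.32, SE 0.38, 95% interval -1.19 to 0.55, adjusted p 0.924 in limma). Tfap2c was at 23.2 and 47.9 CPM in the controls against 27.9 and 26.9 CPM after knockdown (log2 difference -0.28, SE 0.48, 95% interval -1.37 to 0.82, adjusted p 0.963). Its 2 knockdown libraries lay between the 2 controls, and its sign turned without control replicate B (0.23). Both intervals reach further below 0 than the difference measured for Nr5a2, so a decrease of that size is not excluded in either gene.

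Start-site sequences are shown for Nr5a2, which was lower in both knockdown libraries, and for Klf17 and Pou5f1, which were both higher in knockdown replicate A than in B. They are the 250 bases before the outermost start site, from RefSeq's promoter table on GRCm38.p6, which held 5 of the 10 factors (Nr5a2, Sox2, Klf4, Klf17 and Pou5f1). Nr5a2 is at chr1:136960449-136960698 (minus strand), Klf17 at chr4:117765667-117765916 (minus strand) and Pou5f1 at chr17:35505782-35506031 (plus strand). Sequences read 5′ to 3′ towards the gene, and capitals mark matches on either strand to the CACC-box letters CCACCC bound by KLF factors.
Nr5a2: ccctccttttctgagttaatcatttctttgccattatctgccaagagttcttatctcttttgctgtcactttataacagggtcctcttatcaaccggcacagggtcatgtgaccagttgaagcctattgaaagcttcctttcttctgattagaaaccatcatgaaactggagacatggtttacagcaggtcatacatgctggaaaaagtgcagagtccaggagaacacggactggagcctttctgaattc
Klf17: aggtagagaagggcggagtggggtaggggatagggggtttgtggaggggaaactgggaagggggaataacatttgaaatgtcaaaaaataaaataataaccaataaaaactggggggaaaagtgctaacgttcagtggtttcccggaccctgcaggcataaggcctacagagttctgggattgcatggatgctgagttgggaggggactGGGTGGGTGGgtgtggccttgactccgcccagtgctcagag
Pou5f1: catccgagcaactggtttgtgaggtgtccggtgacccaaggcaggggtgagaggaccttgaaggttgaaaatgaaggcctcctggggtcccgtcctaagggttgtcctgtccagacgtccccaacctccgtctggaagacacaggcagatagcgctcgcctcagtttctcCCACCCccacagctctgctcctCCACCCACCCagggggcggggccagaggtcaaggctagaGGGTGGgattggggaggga
The CACC-box letters occurred in 28.1% of the 32851 promoters of that length in the table. Klf17 held 2 overlapping matches, 41 to 36 and 37 to 32 bases before the start site, and Pou5f1 held 4, of which those at 58 to 53 and 54 to 49 bases overlap. Nr5a2 held none of the searched letters in this window. Both Nr5a2 and Pou5f1 have a second start site in the table, within the gene, whose window is not shown: that of Nr5a2 held 2 CACC-box matches and that of Pou5f1 held 1 match to the SOX letters given next. The other letters searched on both strands, AAGGTCA for NR5A factors, ATGCAAAT for POU factors, AACAATG for SOX factors and GCCNNNGGC for AP-2 factors, had no match in these 3 windows and occurred in 4.08%, 1.6%, 3.29% and 13.7% of all promoters. A match describes the letters and is no evidence of binding.

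Other genes of the same programme were described from 4 lists. Of 23 listed regulators of genome activation, 21 were tested in the knockdown table and 0 passed in limma, with 5 at an unadjusted p under 0.05. Both knockdown libraries lay below both controls for 9 of the 21 (42.9%, beside 18.4% of all genes tested) and above for 0, and the median log2 difference was -0.17. Trim28, a corepressor of retroelements, was at 149 and 155 CPM in the controls against 87.2 and 62.5 CPM after knockdown. Tead4, a partner of Yap1, was at 17.7 and 23.3 CPM against 8.49 and 6.22 CPM. Nfya, a subunit of the NF-Y complex, was at 44.2 and 74.8 CPM against 33.0 and 18.3 CPM. Cdk9, the kinase of transcription elongation, was at 82.6 and 105 CPM against 59.2 and 37.5 CPM. These 4 genes had log2 differences between -0.97 and -1.37, each at an adjusted limma p of 0.859, and in each the 2 groups did not overlap. Dux, the factor known to start the 2-cell programme, had 0 and 1 reads in the controls and 4 and 0 in the knockdown libraries, and was not tested. Its rows Dux and Duxf3 held identical reads in every library used.

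Of 20 listed genes of the pluripotency network, 14 were tested, 0 passed and 2 had an unadjusted p under 0.05 (median log2 difference -0.14, 3 with both knockdown libraries above both controls and 3 below, 21.4% each beside 18.1% and 18.4% of all genes tested). Tfcp2l1, a factor of naive pluripotency, was at 0.480 and 2.25 CPM in control embryos against 12.2 and 5.67 CPM after knockdown. Prdm14, a factor of pluripotent and germ cells, was at 26.0 and 17.6 CPM against 5.48 and 7.65 CPM. Zfp42 (17.3 and 7.75 against 15.1 and 37.7 CPM) overlapped between groups, and Tbx3 (3.04 and 5.70 against 6.09 and 11.7 CPM) did not. Nanog had 17 and 0 reads in the controls and 1 and 11 in the knockdown libraries and was not tested. Of 12 early lineage factors only 3 were tested and 0 passed: Gata6 at 1.04 CPM in each control and 1.86 and 1.60 CPM in knockdown, Gata3 at 12.7 and 11.5 against 32.4 and 8.20 CPM, and Gata4 at 27.4 CPM in each control against 23.3 and 22.6 CPM.

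The last list held genes that share a name stem with the 10 factors (other Klf, Sox, Sall, Tfap2, Pou and Dppa genes). It was drawn by symbol alone, so its members, the Dppa genes among them, need not be related to a factor by sequence. Of these, 28 were tested in the knockdown table and 0 passed. Without overlap, 8 lay above (28.6%, beside 18.1% of all genes tested) and 6 below (21.4%, beside 18.4%). The median log2 difference was 0.01. Klf10 had the smallest p of this list: it was at 6.04 and 13.4 CPM in the controls against 26.8 and 65.0 CPM after knockdown (log2 difference 2.09, SE 0.60, adjusted p 0.859 in limma). Pou4f1 was at 28.0 and 28.8 against 41.7 and 83.8 CPM, Dppa1 at 6.76 and 7.31 against 16.2 and 13.3 CPM, and Pou6f1 at 5.52 and 6.63 against 4.37 and 1.87 CPM. Klf10, Pou4f1 and Dppa1 lay above the controls in both knockdown libraries and Pou6f1 below, without passing the test.

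In the immunoprecipitation, Tfap2c and Klf4 RNA was recovered at a higher level with the anti-His antibody than with IgG, and Dppa4, Sall4 and Pou5f1 RNA lay higher in both His than in both IgG libraries without passing. Klf17 RNA was at nearly the same level in all 4 pulldowns. Nr5a2, Klf5 and Dppa2 were present in 1 IgG library and at 0 in the other, so that no direction could be read for them. limma called 2 of the 9 factors tested (22.2%), both higher in His, beside 36.6% of 11232 genes tested, of which 35.7% were higher and 0.917% lower. Of the 4111 genes called, 3644 had both IgG libraries under 1 CPM and so entered the test only through their His level, which fixed their direction; of the factors this holds for Klf4. Of the genes called, 97.5% were higher in His; with DESeq2, which called 5513 genes, 86.5% were. The median log2 difference over the 9 factors was 2.08, beside 2.01 over all genes tested. The latter was 2.34 with the 3162 genes at 0 reads in both IgG libraries set to a floor of 3 pooled IgG reads. Both His libraries were above both IgG libraries for 5 of the 9, near the 54.1% of all genes tested, and groups did not overlap for 6 of the 9 (66.7%), near the 63.1% of all genes tested. The 2 calls depended on the tool: edgeR on the recovered reads called 0 of 9 factors and 0 genes in all (4592 at an unadjusted p under 0.05), as did quantile normalization (2339), and DESeq2 called 3 of 9.

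Tfap2c was at 101 and 109 CPM in His (847 and 862 reads) against 1.69 and 0.427 CPM in IgG (10 and 2 reads). The 2 His libraries were close to each other and far above both IgG libraries. The log2 difference was 5.76 (SE 0.78, 95% interval 3.44 to 8.08, adjusted p 0.0144 in limma), with 96.9% of all genes tested lower. It kept its direction in 8 of 8 alternatives, at 4.00 to 6.76. It did not pass with quantile normalization (adjusted p 0.155), with edgeR (0.0654) or with the replicate letter as a block (0.0553), nor without His replicate A or B (1.00 each), where a lone His library is assumed to vary like the IgG pair.

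Klf4 was at 6.46 and 10.4 CPM in His (54 and 82 reads) and had 2 and 1 reads in IgG. Over the pooled reads (136 against 3) the ratio was 29.5, with an exact 95% interval of 9.89 to 145 that covers counting error only. The log2 difference of 2.85 (SE 0.36, 95% interval 1.77 to 3.94, adjusted p 0.0130 in limma) had 66.0% of all genes tested below it, and turned to -0.65 with quantile normalization (adjusted p 0.402). It passed in 6 of 8 alternatives; edgeR, at 4.72, gave an adjusted p of 0.0547. Klf4 entered the test only through its His level, and was not tested when a His library was left out.

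**Figure D2:**
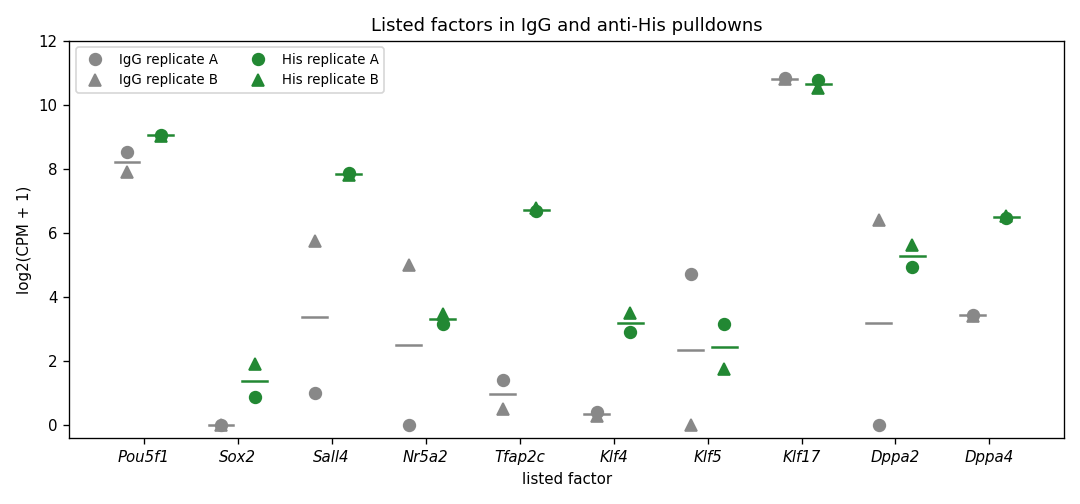
Level of each listed factor in the immunoprecipitation table, as log2(CPM + 1), with circles for replicate A, triangles for replicate B and short lines for the mean of each pair. The His pairs of Pou5f1, Sall4, Tfap2c and Dppa4 lie close together, while the IgG pairs of Sall4, Nr5a2, Klf5 and Dppa2 are far apart, and Klf17 is high in all 4 libraries.

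Of the partner genes, Dppa4 was separated between the pulldowns and Dppa2 was not. Dppa4 was at 87.6 and 91.8 CPM in His against 9.96 and 9.62 CPM in IgG, so that each pair was tight and the groups were 9.17 times apart. The log2 difference was 3.07 (SE 0.83, 95% interval 0.61 to 5.54, adjusted p 0.0690 in limma), over a range of 2.22 to 3.18 in the alternatives. It passed in 2 of 8 alternatives, with a pseudocount of 5 (0.0467) and with DESeq2 (8.4e-05). It also passed without IgG replicate A (0.000969) or B (0.000618), but there, as in every fit with 1 IgG library, the spread comes from the His pair alone and the lone IgG library is assumed to vary like it. It did not pass with edgeR (0.159), with the replicate letter as a block (0.326) or without His replicate A or B (1.00 each). Dppa2 was at 29.9 and 48.1 CPM in His, at 0 in IgG replicate A and at 83.8 CPM in IgG replicate B (392 reads), which was higher than either His library. Its log2 difference was 2.08 (SE 2.59, 95% interval -5.65 to 9.81, adjusted p 0.649), and it turned from 5.28 against IgG replicate A alone to -1.12 against IgG replicate B alone. It was also below 0 with edgeR (-0.0048) and DESeq2 (-0.21). The difference between Dppa2 and Dppa4 in this contrast was not tested.

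Pou5f1 was at 534 and 525 CPM in His against 368 and 239 CPM in IgG, a group ratio of 1.75. Its His libraries did not overlap with IgG, but its log2 difference of 0.84 (SE 0.35, 95% interval -0.20 to 1.87, adjusted p 0.176 in limma) lay below the median of all genes tested. It passed without IgG replicate A (1.15, adjusted p 0.00192) and without IgG replicate B (0.53, 0.0310), in fits that take the spread from the His pair alone and called 7599 and 7679 genes, and did not pass without His replicate A or B (1.00 each). Sall4 was at 233 and 224 CPM in His, at 1.01 CPM in IgG replicate A (6 reads) and at 52.8 CPM in IgG replicate B (247 reads). The 2 IgG libraries differed by 52.1 times, and the log2 difference of 4.46 (SE 1.99, 95% interval -1.48 to 10.4, adjusted p 0.200) was 6.83 against IgG replicate A alone and 2.09 against IgG replicate B alone. These single-library fits gave adjusted p of 4.3e-05 and 0.000820 in limma, with the spread taken from the His pair alone, so they say nothing of the spread of Sall4 within IgG, and Sall4 did not pass without His replicate A or B (1.00 each). Sox2 had 7 and 22 reads in His replicates A and B (0.837 and 2.78 CPM) and 0 reads in both IgG libraries. It did not reach the level required for testing. Against a floor of 3 reads over the pooled IgG libraries, its pooled level in His was 6.30-fold higher. That figure covers counting error only. It is no lower bound where IgG libraries differ as much as for Dppa2 (0 and 392 reads).

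Klf17 was abundant and nearly level across the pulldowns. It was at 1739.9 and 1459.9 CPM in His against 1811 and 1779 CPM in IgG. Both His libraries lay slightly below both IgG libraries, an arrangement found in 9.06% of all genes tested, and the log2 difference was -0.17 (SE 0.11, 95% interval -0.50 to 0.16, adjusted p 0.363 in limma). The interval lies below the median difference of all genes tested, 2.01. The difference stayed below 0 in 8 of 8 alternatives, at -0.51 to -0.17, though median rescaling moved the median of all genes to 1.77 and quantile normalization to -0.08. Klf17 did not pass in any of them (adjusted p 0.136 to 0.589).

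Nr5a2 was at 7.89 and 10.2 CPM in His, at 0 in IgG replicate A and at 30.8 CPM in IgG replicate B (144 reads). Klf5 was at 7.89 and 2.40 CPM in His, at 25.3 CPM in IgG replicate A (150 reads) and at 0 in IgG replicate B. For both genes 1 IgG library was above both His libraries and the other had no read. Their log2 differences were 0.83 (SE 1.98) and 0.10 (SE 1.93), with adjusted p of 0.820 and 0.981 in limma. Nr5a2 ranged from -1.67 against IgG replicate B alone to 3.32 against IgG replicate A alone, and Klf5 from -2.26 against IgG replicate A alone to 2.46 against IgG replicate B alone. Over all genes tested, replicates had a median SD of 0.69 (log2) within IgG and of 0.35 within His, and the number of genes reaching 1 CPM was 5148 and 5564 in the IgG libraries and 12246 and 12270 in the His libraries.

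**Figure D3:**
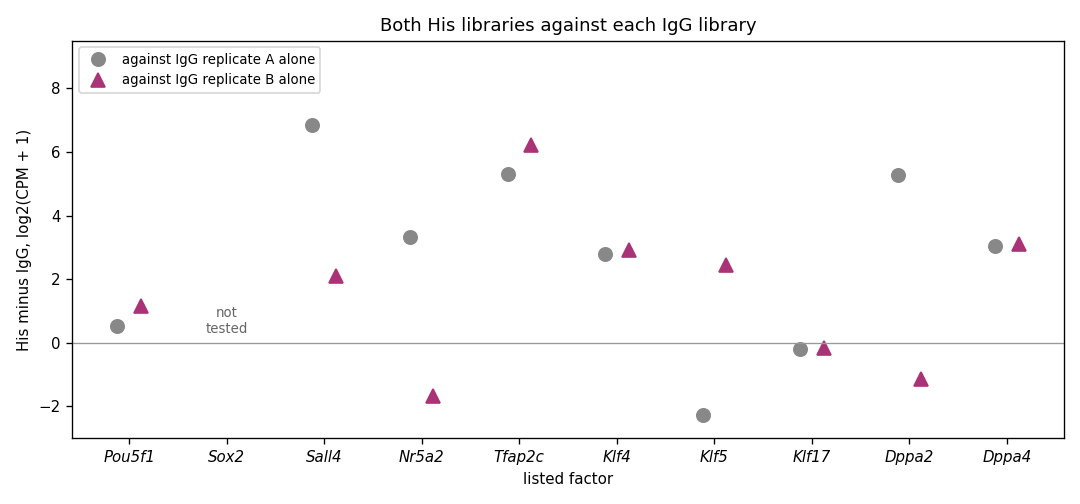
Difference of both His libraries from a single IgG library in log2(CPM + 1), with circles for IgG replicate A and triangles for IgG replicate B. Dppa4 and Klf17 give nearly the same value against either library, as does Klf4, whose 2 and 1 IgG reads leave its value to the pseudocount, while Nr5a2, Klf5 and Dppa2 change sign; Sox2 was not tested.

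Several marker lists also differed between the pulldowns. Markers of the later preimplantation embryo overlapped, at a summed level of 313 and 337 CPM in His and 386 and 284 CPM in IgG. Most of that was Dppa5a, at 229 and 278 CPM in His and 386 and 281 CPM in IgG. The 12 oocyte-derived markers summed to 14977 and 15135 CPM in His and to 4343 and 5853 CPM in IgG, and the 9 markers of the 2-cell embryo to 1205 and 1178 CPM in His and 824 and 395 CPM in IgG, with 4 and 2 of the 9 at 0 in IgG replicates A and B. Blood markers summed to 55.7 and 70.2 CPM in His and to 0 in IgG. Sperm markers summed to 1.08 and 7.20 CPM in His and to 47.4 and 54.3 CPM in IgG, all of it Prm2. The summed level of fibroblast markers was 3.59 and 0 CPM in His and 0 and 48.9 CPM in IgG, and of cumulus and granulosa cell markers 1.08 and 7.45 CPM in His and 1.01 and 0 CPM in IgG. The part of these RNAs in the values of the 10 factors was not tested.

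Of the other pluripotency network genes, 15 were tested in the immunoprecipitation table and 6 passed in limma, all higher in His (40.0%, beside 36.6% of all genes tested). The list's median log2 difference was 2.60, also with the 4 genes at 0 reads in both IgG libraries set to a floor of 3 pooled IgG reads. Klf2 was at 14.8 and 12.4 CPM in His and Sox15 at 32.4 and 22.0 CPM, and both had 0 reads in IgG. Tbx3 (19.5 and 27.0 CPM) and Fgf4, a growth factor of the inner cell mass (8.73 and 10.6 CPM), each had 2 and 0 reads in IgG replicates A and B. All 4 passed, with adjusted p of 0.00997 to 0.0101 in limma, but all 6 genes of this list that passed had entered the test only through their His level, so their direction was fixed by that choice. Nanog had 4 and 0 reads in His and 0 and 12 in IgG.

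Of the regulators of genome activation, 22 were tested and 7 passed, all higher in His (31.8%, beside 36.6% of all genes tested), with a median log2 difference of 2.04, beside 2.01 over all genes tested. Dppa3, a maternal factor that protects DNA methylation and is also called Stella, was at 4547 and 4343 CPM in His and at 937 and 1087 CPM in IgG (log2 difference 2.14, SE 0.09, adjusted p 0.00997 in limma). Obox5, an oocyte homeobox gene, was at 1553 and 1484 CPM in His and at 210 and 308 CPM in IgG (2.57, SE 0.27, adjusted p 0.0101). Carm1, an arginine methyltransferase, was at 29.3 and 39.3 CPM in His with 2 and 0 reads in IgG. Zfp352, a zinc-finger gene of the 2-cell stage, was at 16.5 and 36.5 CPM in His with 0 and 2 reads in IgG. Of the 7 that passed, 4 had entered the test only through their His level, Carm1 and Zfp352 among them. Dux had 174 and 65 reads in His and 11 and 0 in IgG, and did not pass (adjusted p 0.0709). Of the early lineage factors 4 were tested and 2 passed (50%, beside 36.6% of all genes tested), Gata3 (20.6 and 12.9 CPM in His, 0 and 2 reads in IgG) and Gata6, both of which entered only through their His level, while Sox17 (22.6 and 11.6 against 116 and 0 CPM) and Gata4 (167 and 226 against 739 and 35.5 CPM) overlapped. Among 26 genes tested of the list drawn by name stem, 9 passed, all higher in His (34.6%, beside 36.6% of all genes tested). Dppa3, Dppa1, Klf2 and Sall2 had the smallest p. In His, Dppa1 averaged 13.3 CPM and Sall2 8.80 CPM, each with 0 reads in IgG, and 8 of the 9 genes that passed entered only through their His level. The median of this list was 1.97, or 2.18 with the 10 genes at 0 in IgG set to a floor of 3 pooled IgG reads.

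**Figure D4:**
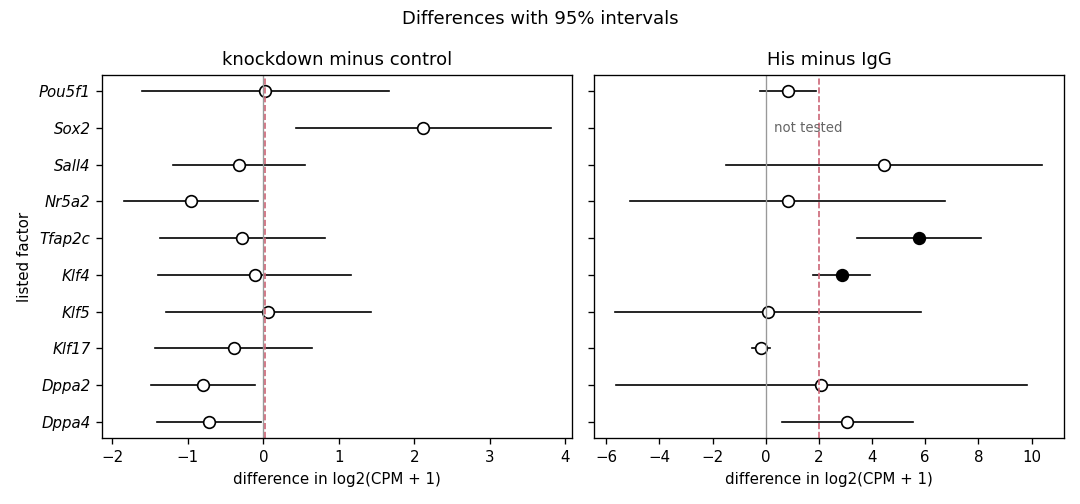
Differences in log2(CPM + 1) for the listed factors in the 2 comparisons, as limma estimates with 95% intervals; filled circles passed at an adjusted p under 0.05, and the dashed line is the median of all genes tested. In the knockdown all circles are open and Dppa2, Dppa4 and Nr5a2 lie at -0.72 to -0.96, while in the pulldown only Tfap2c and Klf4 are filled and Klf17 lies at -0.17.

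The 2 tables were normalized separately and hold different kinds of RNA, so their levels are given side by side without a comparison. Pou5f1 averaged 8.48 ± 0.285 CPM in control embryos and 529 ± 6.56 CPM in His, and Klf17 673 ± 29.6 and 1599.9 ± 198 CPM (SD, n = 2 each). Dppa2 averaged 737 ± 56.3 CPM in control embryos and 39.0 ± 12.9 CPM in His, and Dppa4 911 ± 85.4 and 89.7 ± 2.96 CPM. Another 4 columns of the immunoprecipitation table were not used here, because their names do not decide to which samples they belong.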

How the data were processed

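RNA of mouse 2-cell embryos was measured in 12 labelled samples, of which 8 were used; 4 columns of the immunoprecipitation table were left out because their names fit more than 1 group, so the planned comparisons with input and total RNA were not run. The deposited values are CPM, scaled by the authors to each library's total. Per the submitters' processing notes, Trim Galore 0.6.7, FastQC, HISAT2 2.2.1, featureCounts 2.0.1, edgeR and GRCm39 were used; annotation, strand setting and gene filter are not given in the sources used here. The Smart-seq2 chemistry named in the labels' protocols carries no molecular identifiers. Listed genes held all but 3.73% to 5.96% of a library's reads. All values (100%) were whole multiples of 1 read within 0.02 reads, so reads were recovered.

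A gene was tested where 2 or more of the 4 libraries compared reached 1 CPM. The test was that of limma 3.58.1 (R 4.3.3) on log2(CPM + 1): lmFit and trended eBayes, two-sided, with Benjamini-Hochberg adjustment over all genes and a threshold of 0.05. Differences understate the change of low genes; SE and 95% intervals are limma's moderated ones. Alternatives were pseudocounts of 0.1 and 5, no filter, median rescaling, quantile normalization, the replicate letter as a block, each library left out, and 2 count tests of the recovered reads, by edgeR 4.0.16 and by DESeq2 1.42.0. No filter and the block leave each gene's difference as in the main fit. The code was tested on simulated data. The 10 factors, the gene and marker lists and the promoter letters were chosen with earlier results of these data known. Beside the 10 factors, up to 4 genes of each list with the smallest p at a mean of at least 1 CPM are named. Dux, Nanog, Gata6 in the pulldown, Gdf9, Zp1, Zp2, Zp3, Prm2, Dppa5a as a marker and Sox2ot were named after their values were seen.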

Additional observations from a re-analysis of the deposited data

How the results depend on the processing

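In the knockdown, the count of listed factors called (0, with 4 at an unadjusted p under 0.05) became 1 with DESeq2 and 0 to 4 with a library left out; all genes called (0, 726 unadjusted) became 2 with the replicate block (926 unadjusted), 15 with DESeq2 (1029) and 0 to 1894 with a library left out. The factors' median of -0.30 was -0.65 to -0.060 with a library left out. Signs turned for Pou5f1 (-0.016 with a pseudocount of 0.1, -0.034 with quantile normalization, -0.98 to 1.03 with a library left out), Klf5 (-0.022 with quantile normalization; -0.63 to 0.75), Klf4 (0.16 with edgeR, 0.19 with DESeq2; -0.87 to 0.64), Klf17 (-1.08 to 0.30) and Tfap2c (-0.79 to 0.23). Between His and IgG, the 2 factors called became 1 with the replicate block, 0 with quantile normalization and edgeR, and 0 to 8 with a library left out; the 4111 genes called became 0 with quantile normalization (2339 unadjusted) and edgeR (4592 unadjusted, smallest adjusted p 0.0547), and 6 to 7679 with a library left out. The median of 2.08 became 3.18 and 1.03 with pseudocounts of 0.1 and 5, 1.74 with no filter, 0.59 after quantile normalization, 0.68 by edgeR, 0.42 by DESeq2 and 1.30 to 3.05 with a library left out. Signs turned for Klf5 (-0.33 with a pseudocount of 5, -0.24 under median rescaling, -2.18 under quantile normalization, -1.54 by edgeR, -1.83 by DESeq2; -2.26 to 2.46), Nr5a2 (-1.53, -0.66 and -0.87 under the last 3; -1.67 to 3.32), Dppa2 (-0.0048 with edgeR, -0.21 with DESeq2; -1.12 to 5.28) and Klf4 (-0.65 with quantile normalization). The cause was not tested. With a library left out, 9 or 10 factors were tested in the knockdown and 8 or 9 between His and IgG. The highest knockdown counts came without knockdown replicate A, where 9 factors and 12547 genes were tested. The highest counts between His and IgG came without IgG replicate B, where 9 factors and 10972 genes were tested. Each such fit leaves 1 library in a group, which is assumed to vary like the other pair. With 10 and 2 IgG reads for Tfap2c, 2 and 1 for Klf4 and 0 for Sox2, depth limits their ratios. Comparisons of His or IgG with input, and of input with total RNA, were not run. Same-letter deviations correlated at 0.146 in the knockdown and -0.014 in the pulldowns; the block ended the call of Tfap2c (adjusted p 0.0553) and changed no other call of a listed factor.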

Other observations

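The genes whose levels followed a factor most closely were sought for Dppa4, Dppa2 and Klf17, the 3 taken by mean CPM in control embryos, which is no ranking of expression per length, over the 8 libraries of both tables (log2(CPM + 1), centred within each table, 5321 candidate genes at a mean of at least 10 CPM in both). For Dppa4 they were Snrpa1 and Mgll, for Dppa2 Spdl1 and Ilf2, and for Klf17 Pold3 and Med27, with Pearson correlations of 0.978 to 0.998 given as a description. Each shares with its factor the same libraries and depths, and for Dppa4 the spread is mostly that between IgG and His, while for Dppa2 it is mostly that between IgG replicate A, at 0, and the others.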
